A study of Mus musculus with 48 samples.

Results

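Zfas1, Epb41l4aos, Gas5, Snhg1, Snhg5, Snhg6, Snhg8 and Snhg12 are 8 noncoding genes of the mouse that carry small nucleolar RNAs (snoRNAs) in their introns. They are 8 of the 35870 genes in the deposited table, matched by symbol, and all 8 passed the filter on low counts in both tissues. They were selected on their read counts in repopulated against old microglia, where they stood high, so every value of that comparison is given below as a description, without a test. The study has 48 RNA-seq libraries, 8 in each of 6 groups, all from male wild type C57BL/6 mice. Sorted brain microglia and whole spinal cord were each taken from repopulated, old and young mice. The repopulated mice, 23 months old, had 5 days of a Csf1r inhibitor, which depletes microglia, and then 7 days of recovery. The old mice, also 23 months old, and the young mice, 3 months old, had vehicle. The sort took Cd11b and Cd45 positive cells, a gate that other myeloid cells also meet.

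A snoRNA host gene is transcribed as one precursor. Splicing removes the introns, and the snoRNAs are trimmed out of them and guide chemical modification of ribosomal RNA: box C/D snoRNAs guide methylation and box H/ACA snoRNAs guide pseudouridylation. The spliced exons of many such hosts encode no protein, and the spliced RNA of several of them is broken down by nonsense-mediated decay when it is translated. Many host genes begin with a pyrimidine tract, the 5′ TOP motif shared with ribosomal protein genes, whose translation follows nutrient and growth signals. Because polyadenylated RNA was sequenced, the values below measure the spliced host RNA and not the mature snoRNAs, which carry no poly(A) tail.

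The GENCODE M21 annotation of GRCm38 placed 31 snoRNA entries at 29 distinct loci on the strand of the 8 hosts. Gas5 held 9 of these loci, Snhg1 held 8, Snhg12 held 4, Zfas1 held 3, Snhg5 held 2, and Epb41l4aos, Snhg6 and Snhg8 held 1 each. The letters TGATGA of box C were sought within the first 25 bases, and the letters CTGA of box D within the last 25. Both were found in 21 of the 31 entries, and the entry of Epb41l4aos was not searched. Of 1392 GENCODE snoRNA entries of 60 to 140 bases, 21.8% held both. Letters were searched on the snoRNA strand only, and a match describes the sequence without showing a working box. Zfas1 is on chromosome 2 at chr2:167062934-167065862, plus strand. The sequences of its 3 snoRNAs are shown because Zfas1 leads the results, with Snord47 of Gas5 (chromosome 1), Snord99 of Snhg12 (chromosome 4) and Snora24 of Snhg8 (chromosome 3) for comparison. Capitals mark the box C and box D letters, or in Snora24 the letters ACA within the last 9 bases. Of all the same 1392 entries, 43.1% were over 100 bases, lacked the box C and box D pair and held ACA there.
Gm25878 (Zfas1): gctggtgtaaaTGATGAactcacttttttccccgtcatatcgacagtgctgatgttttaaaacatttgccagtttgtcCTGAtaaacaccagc
Gm23201 (Zfas1): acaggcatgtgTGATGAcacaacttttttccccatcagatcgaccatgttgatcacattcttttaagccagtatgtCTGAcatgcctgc
Snord12 (Zfas1): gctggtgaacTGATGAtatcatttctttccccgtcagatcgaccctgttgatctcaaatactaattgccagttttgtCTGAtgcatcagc
Snord47 (Gas5): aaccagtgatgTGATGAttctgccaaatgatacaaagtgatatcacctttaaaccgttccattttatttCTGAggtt
Snord99 (Snhg12): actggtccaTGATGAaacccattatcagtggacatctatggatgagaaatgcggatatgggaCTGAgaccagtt
Snora24 (Snhg8): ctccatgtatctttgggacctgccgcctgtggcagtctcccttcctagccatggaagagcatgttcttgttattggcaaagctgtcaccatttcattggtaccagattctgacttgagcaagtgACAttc

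The annotated starts were searched for the pyrimidine tract, since the 5′ TOP genes appear again beside the host genes below. RefSeq promoter sequences (GRCm38.p6) gave 7 start windows for 6 of the 8 genes. No entry was matched for Snhg6, and Epb41l4aos was not searched. A C within 5 bases of the start that opens a run of at least 5 C or T bases, on the strand of the gene, was found in 3 of the 7 windows, those of the second Gas5 start, of Snhg8 and of Snhg12. Of 32851 RefSeq start windows, 18.3% held such a run. In the following 60-base windows, 30 bases lie before the annotated start. Capitals mark the run together with any C or T bases directly before its opening C. No such run was found in the Zfas1 window, which is given beside them.
Zfas1 (chr2:167062904-167062963, plus strand): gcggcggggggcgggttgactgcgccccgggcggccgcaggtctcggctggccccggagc
Gas5 (chr1:161035136-161035195, plus strand): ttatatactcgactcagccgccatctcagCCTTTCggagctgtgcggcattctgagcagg
Snhg8 (chr3:123508307-123508366, minus strand): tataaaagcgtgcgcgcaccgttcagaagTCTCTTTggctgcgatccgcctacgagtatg
Snhg12 (chr4:132308648-132308707, plus strand): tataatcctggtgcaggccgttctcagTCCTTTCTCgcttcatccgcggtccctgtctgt

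Libraries held 23808200 to 31415000 counted reads (totals to 6 digits) in repopulated microglia, 18741900 to 27755100 in old microglia and 28373200 to 34496300 in young microglia. In cord they held 15909900 to 33004800 in repopulated, 22802500 to 31075700 in old and 23756100 to 32172100 in young mice. All 8 microglial markers examined, P2ry12, Tmem119 and Sall1 among them, were detected in the sorted cells, where summed levels of 8 markers each reached at most 13.1 CPM for neurons, 419.7 CPM for endothelial cells, 556 CPM for astrocytes and 636 CPM for oligodendrocytes. Levels are CPM, read counts divided by the library total after TMM scaling and given per 1e6 reads, and a mean ± SD is over 8 libraries unless stated. In bulk RNA, a change in the number of cells of one type and a change in RNA per cell cannot be told apart. One library, repopulated cord replicate 6, stood apart in all 8 genes, and cord results are given with and without it. The labels leave unstated whether each library is its own animal, and p-values here reflect library-to-library spread alone.

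Zfas1 lies head to head with Znfx1 and has been studied as a growth-related noncoding RNA of the mouse mammary gland. It had 44.7, 69.6 and 99.0 CPM (lowest, median and highest library) in repopulated microglia, 8.10, 11.8 and 17.6 CPM in old microglia and 3.39, 5.05 and 8.23 CPM in young microglia. The repopulated libraries all lay above every old library. The old libraries lay above the young ones except for old replicate 7, at 8.10 CPM, which fell under young replicate 7, at 8.23 CPM. Zfas1 averaged 70.2 ± 15.4 CPM in repopulated and 12.5 ± 3.12 CPM in old microglia, a log2 fold change of 2.495 (SE 0.18), or 5.64-fold. Against young microglia, at 5.00 ± 1.60 CPM, the repopulated level was 14.0-fold higher on the fitted scale. With age alone, Zfas1 rose 2.49-fold in old against young microglia (log2 1.32, SE 0.17, edgeR quasi-likelihood test, adjusted p 8.67e-07).

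**Figure D1:**
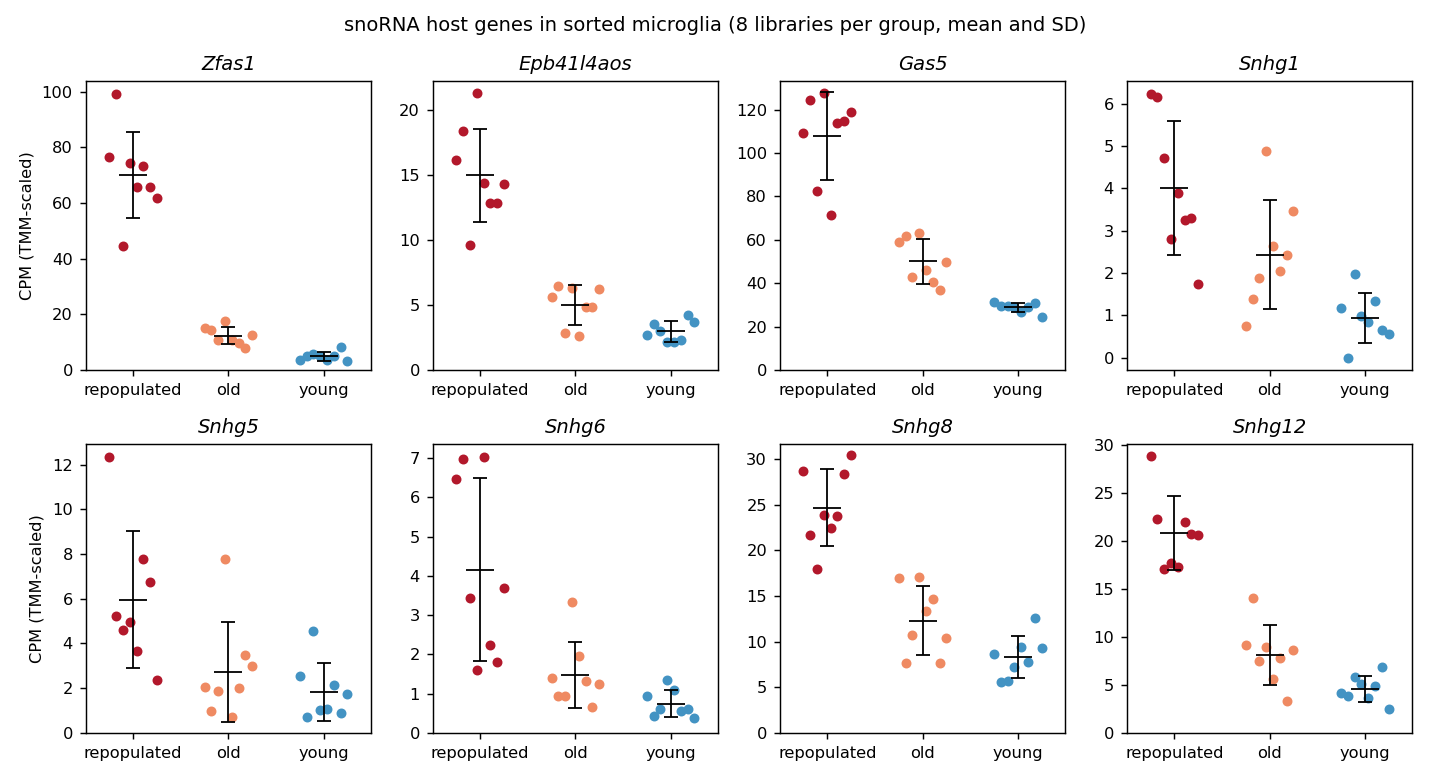
Level of each host gene in sorted microglia, in TMM-scaled CPM, with 1 point per library and the mean ± SD as a bar, for repopulated, old and young mice. Zfas1 separates the repopulated libraries, from 44.7 CPM up, from the old ones, up to 17.6 CPM, and Snhg1 has 1 young library with no read.

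Gas5, named for its accumulation in growth-arrested mouse cells, was the most abundant of the 8 by reads. It had 71.3, 114 and 128 CPM in repopulated microglia, 36.9, 48.01 and 63.3 CPM in old microglia and 24.7, 29.4 and 31.2 CPM in young microglia. The 3 groups did not overlap at any point. Gas5 rose 1.73-fold in old against young microglia (50.1 ± 10.1 against 28.9 ± 2.17 CPM, log2 0.79, SE 0.12, adjusted p 4.37e-06). Between repopulated and old microglia its log2 fold change was 1.11 (SE 0.12), with a repopulated mean of 108 ± 20.2 CPM.

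Snhg12, which carries both box H/ACA snoRNAs and Snord99, had 17.0, 20.6 and 28.8 CPM in repopulated, 3.31, 8.22 and 14.0 CPM in old and 2.45, 4.51 and 6.86 CPM in young microglia. The repopulated libraries stood clear of the old ones, while old and young libraries overlapped. Snhg12 rose 1.77-fold with age (log2 0.82, SE 0.21, adjusted p 0.00465) and its repopulated level was 2.57 times the old level. Snhg8, the host of Snora24, had 17.9, 23.9 and 30.5 CPM in repopulated, 7.63, 12.04 and 17.1 CPM in old and 5.57, 8.22 and 12.6 CPM in young microglia. Its repopulated libraries lay just above the old ones, and old and young overlapped. Snhg8 rose 1.49-fold with age (log2 0.57, SE 0.18, adjusted p 0.0197), a call that was lost without old replicate 1 (adjusted p 0.0510) or old replicate 4 (adjusted p 0.0543). Its repopulated level was 2.002 times the old level on the fitted scale.

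Epb41l4aos, a noncoding gene next to Epb41l4a, which encodes a protein of the band 4.1 family, had 9.61, 14.3 and 21.2 CPM in repopulated, 2.64, 5.24 and 6.45 CPM in old and 2.14, 2.84 and 4.24 CPM in young microglia. No repopulated library overlapped an old one. Epb41l4aos rose 1.67-fold with age (log2 0.74, SE 0.21, adjusted p 0.0108), although limma-voom with quality weights did not call it (adjusted p 0.0603). Its log2 fold change in repopulated against old microglia was 1.59 (SE 0.21), or 3.00-fold, second to Zfas1 among the 8.

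Snhg1, Snhg5 and Snhg6 were the lowest of the 8 in microglia. Snhg1, host of Snord22, had 1.75, 3.60 and 6.22 CPM in repopulated, 0.736, 2.23 and 4.89 CPM in old and 0 to 1.98 CPM in young microglia, where replicate 2 had 0 counts (a count of 0 allows up to 3 reads, or 0.103 CPM by total counts, for counting error only). Snhg1 rose with age (log2 1.37, SE 0.49, adjusted p 0.0454), but the call was lost when any of 13 libraries was left out, with adjusted p from 0.0504 to 0.120. Those 13 were old replicates 4, 5, 6 and 8, repopulated replicates 1, 3, 6 and 7, and young replicates 1, 4, 5, 7 and 8. Snhg6, host of Snord87, had 1.61, 3.57 and 7.03 CPM in repopulated, 0.663, 1.29 and 3.33 CPM in old and 0.377, 0.613 and 1.34 CPM in young microglia, and its age difference did not pass (log2 0.97, SE 0.42, adjusted p 0.105). Snhg5, host of Snord50a and Snord50b, had 2.36, 5.10 and 12.3 CPM in repopulated, 0.690, 2.03 and 7.80 CPM in old and 0.714, 1.41 and 4.58 CPM in young microglia, and did not pass either (log2 0.57, SE 0.43, adjusted p 0.421). In all 3 genes the repopulated libraries overlapped the old ones.

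Counted together, 6 of the 8 host genes rose and 0 fell in old against young microglia, where 21.7% of all 14382 genes tested were called 11% were called higher and 4.12% lay higher without overlap, as Gas5 alone of the 8 did. The median log2 fold change was 0.80 over the 8 genes and -0.01 over all genes. The old libraries of this test also entered the comparison on which the genes were chosen. In repopulated against old microglia, 5 of the 8 did not overlap, 2.09% of all genes lay higher without overlap and 16.2% were called. The choice of the genes fixes that count, and nothing is read from it. The median of the 8 was 1.24 there, and 2.13 in repopulated against young microglia, where 6 did not overlap, 7.2% of all genes lay higher without overlap and 32.7% were called. All 8 log2 fold changes stayed above 0 in these 3 comparisons under every alternative scaling, filter, test and left-out library. Where repopulated microglia enter, the choice of the genes shapes these signs, and nothing is read from them.

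Gene length, ribosomal content and markers of other cells are given beside these values. The deposited gene lengths put 6 of the 8 under 1000 bases, Snhg6 being the shortest and Snhg8 the longest of the 6 at 785 bases, with Snhg5 at 1011 and Gas5 at 2554. Of 820 tested genes under 1000 bases, 197 rose, 10 fell and 613 were not called in old against young microglia, with a median log2 fold change of 0.27. Between repopulated and old microglia 180 rose, 35 fell and 605 were not called. Ribosomal protein genes took 5.51 ± 0.37% of reads in repopulated, 3.38 ± 0.72% in old and 2.29 ± 0.21% in young microglia. Markers of cells that the gate admits moved too: all 8 neutrophil markers rose with age, with summed levels of 2139.5 to 9249.7 CPM in old against 228 to 1043 CPM in young microglia, and all 8 monocyte markers rose, with sums of 520 to 1301 CPM in old against 78.3 to 223 CPM in young microglia. The 8 microglial markers fell with age, with sums of 35491 to 43517 CPM in old against 50768 to 59276 CPM in young microglia. In repopulated microglia the neutrophil sum was 828 to 3691 CPM, and that of 8 markers of border-associated macrophages was 83.1 to 185 CPM, against 328 to 683 CPM in old microglia. The part of length, ribosomal content or other cells in the host gene values was not tested.

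Levels between genes were compared per length, in the deposited TPM values, which scale each library's length-corrected reads to a common total. In repopulated microglia Zfas1 ranked first at 243 ± 54.9 TPM, above Gas5 at 83.3 ± 16.9 TPM, with no overlap between their libraries. Epb41l4aos (67.97 ± 17.2 TPM), Snhg12 (67.2 ± 10.3 TPM) and Snhg8 (61.7 ± 9.49 TPM) followed, and neighbours in that order overlapped down to Snhg8. Snhg6, Snhg1 and Snhg5 formed a lower set at 19.9 ± 10.7, 16.5 ± 6.29 and 11.5 ± 5.42 TPM. In old microglia Zfas1 (50.6 ± 8.88 TPM) and Gas5 (45.4 ± 6.03 TPM) were not separated, and no neighbours in the order were. In young microglia Gas5 (27.9 ± 2.90 TPM), Snhg8 (25.7 ± 5.72 TPM) and Zfas1 (21.6 ± 6.42 TPM) came first and overlapped. The ratio of Zfas1 to Gas5 within a library was 2.33 to 4.14 in repopulated, 0.986 to 1.24 in old and 0.529 to 1.19 in young microglia, a description that the choice of Zfas1 shapes.

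**Figure D2:**
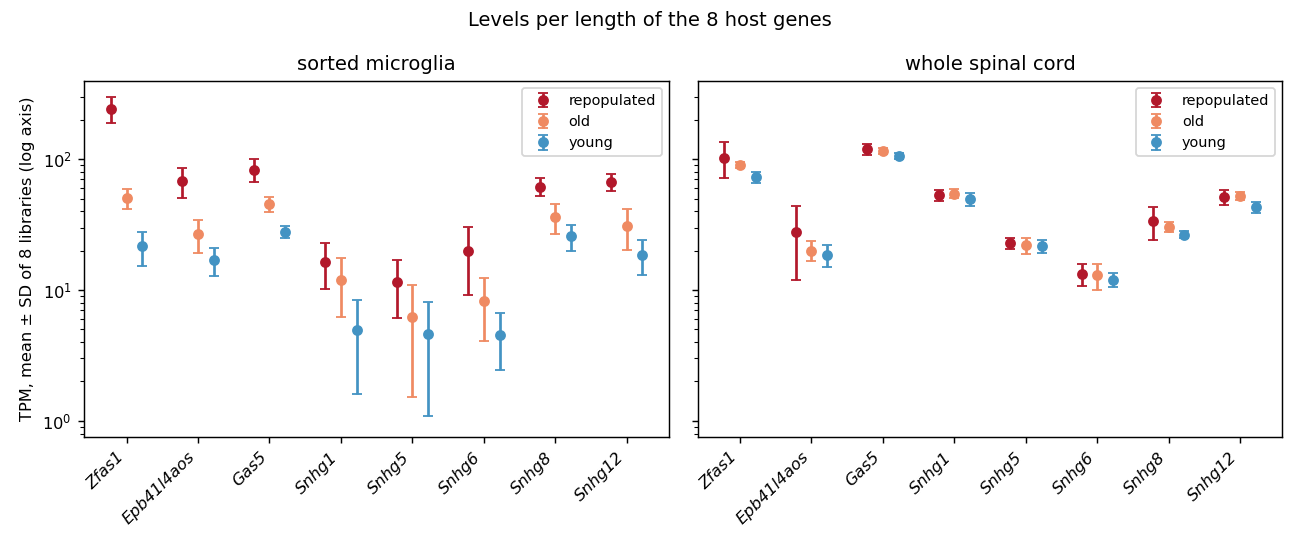
Level per length of the 8 host genes in TPM on a log axis, mean ± SD of 8 libraries, for repopulated, old and young mice in sorted microglia and whole spinal cord. Zfas1 leads in repopulated microglia at 243 TPM, while Gas5 leads in all 3 cord groups, at 119, 116 and 106 TPM.

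In whole spinal cord few host genes were called between the groups. Zfas1 had 15.9, 18.3 and 68.1 CPM in repopulated, 16.6, 17.8 and 19.5 CPM in old and 13.03, 14.0 and 17.8 CPM in young cord. The highest repopulated value is replicate 6; the other 7 repopulated libraries, at 15.9 to 21.0 CPM, overlapped both other groups. Gas5 had 93.6, 102 and 244 CPM in repopulated, 97.1, 101 and 113 CPM in old and 83.7, 97.1 and 102 CPM in young cord, again with replicate 6 as the highest. Of the 8 genes, 0 were called in old against young cord by edgeR, where 6.15% of 18271 genes were called, and 0 had an unadjusted p under 0.05. DESeq2 called 0 there as well, while limma-voom called 2, Zfas1 (adjusted p 0.00985) and Snhg12 (adjusted p 0.0106). In repopulated against old cord 0 were called by edgeR, where 0.148% of genes were, and 1 had an unadjusted p under 0.05, Epb41l4aos at 0.0188. The share of all genes at an unadjusted p under 0.05 is not given, so unadjusted counts have no background here. DESeq2 and limma-voom also called 0 in repopulated against old cord. In repopulated against young cord 1 was called, where 10.1% of genes were called and 7.28% were called higher: Zfas1 was 1.66-fold higher (log2 0.73, SE 0.22, adjusted p 0.0355). That call was lost without young replicate 1, 2, 3, 6 or 7 (adjusted p 0.0572 to 0.0641), with the replicate number as a block (adjusted p 0.104) and in a fit of these 2 groups alone (adjusted p 0.118). Without repopulated replicate 8, Epb41l4aos was called as well (adjusted p 0.0458).

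**Figure D3:**
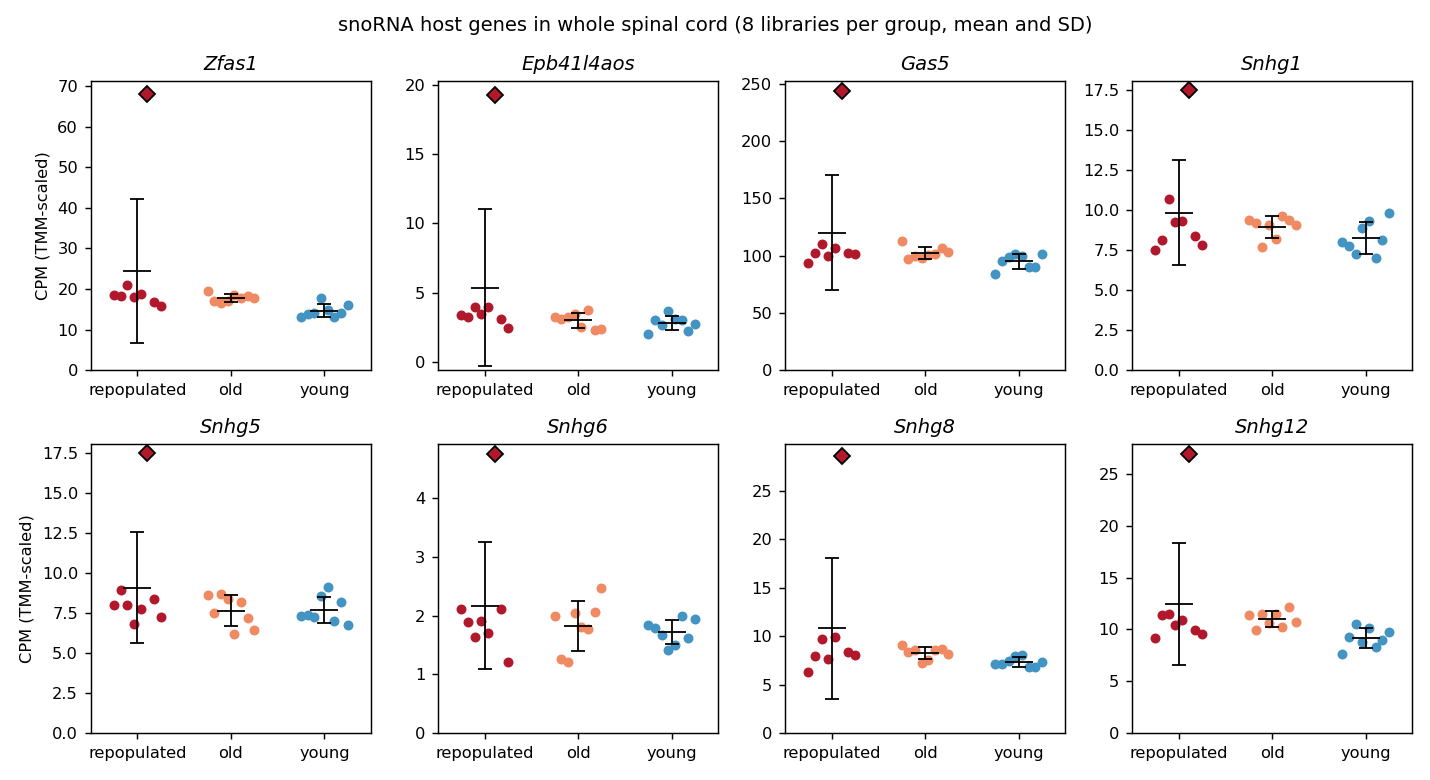
Level of each host gene in whole spinal cord, in TMM-scaled CPM, with 1 point per library and the mean ± SD as a bar, for repopulated, old and young mice. The diamond is repopulated replicate 6, which lies above every other cord library in all 8 genes, at 68.1 CPM for Zfas1 and 244 CPM for Gas5.

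Repopulated cord replicate 6 held 2.08 times (Snhg1) to 5.64 times (Epb41l4aos) the median of the other 7 libraries of its group. Ribosomal protein genes took 3.09% of its reads, against 1.06 to 1.24% in the other 7. Relative to their median, its median ratio was 3.26 over 76 ribosomal protein genes, 2.26 over 1227 genes under 1000 bases and 0.99 over all genes. Its summed markers were the highest of the repopulated cords for oligodendrocytes (30785 CPM), neutrophils (372 CPM), astrocytes (7620 CPM) and microglia (482 CPM). The same held for endothelial cells (463 CPM), lymphocytes (7.61 CPM) and red blood cells (395 CPM). They were the lowest for monocytes (114 CPM) and for fibroblasts and meninges (778 CPM). Its sums for border-associated macrophages, neurons and Schwann cells lay within the range of the other 7. In TPM the distance was smaller: Zfas1 had 179 TPM in replicate 6 against 82.2 to 103.1 TPM in the other 7, and Snhg1, at 55.0 TPM, lay inside their range of 46.1 to 63.0 TPM.

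Without that library, age differences in cord were small and more precise. Zfas1 averaged 17.9 ± 0.87 CPM in old and 14.7 ± 1.56 CPM in young cord and rose 1.22-fold (log2 0.29, SE 0.06, adjusted p 0.00150). Snhg12 averaged 11.04 ± 0.71 CPM in old and 9.16 ± 0.89 CPM in young cord and rose 1.20-fold (log2 0.27, SE 0.06, adjusted p 0.00457). These were 2 of 8, with 11.5% of 18401 genes called and 7.76% called higher. Gas5 had a log2 fold change of 0.11 (SE 0.04, adjusted p 0.0697) and did not pass. In repopulated against old cord 0 of 8 were called (0.168% of genes), 0 had an unadjusted p under 0.05, and the log2 fold changes ran from -0.08 (SE 0.06) for Snhg12 to 0.17 (SE 0.13) for Epb41l4aos, with Zfas1 at 0.03 (SE 0.06). In repopulated against young cord Zfas1 (log2 0.32, SE 0.06, adjusted p 0.000621) and Snhg12 (log2 0.19, SE 0.06, adjusted p 0.0468) rose, where 13.9% of genes were called and 9.21% were called higher. The comparisons share their old and young libraries and are not independent of each other.

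**Figure D4:**
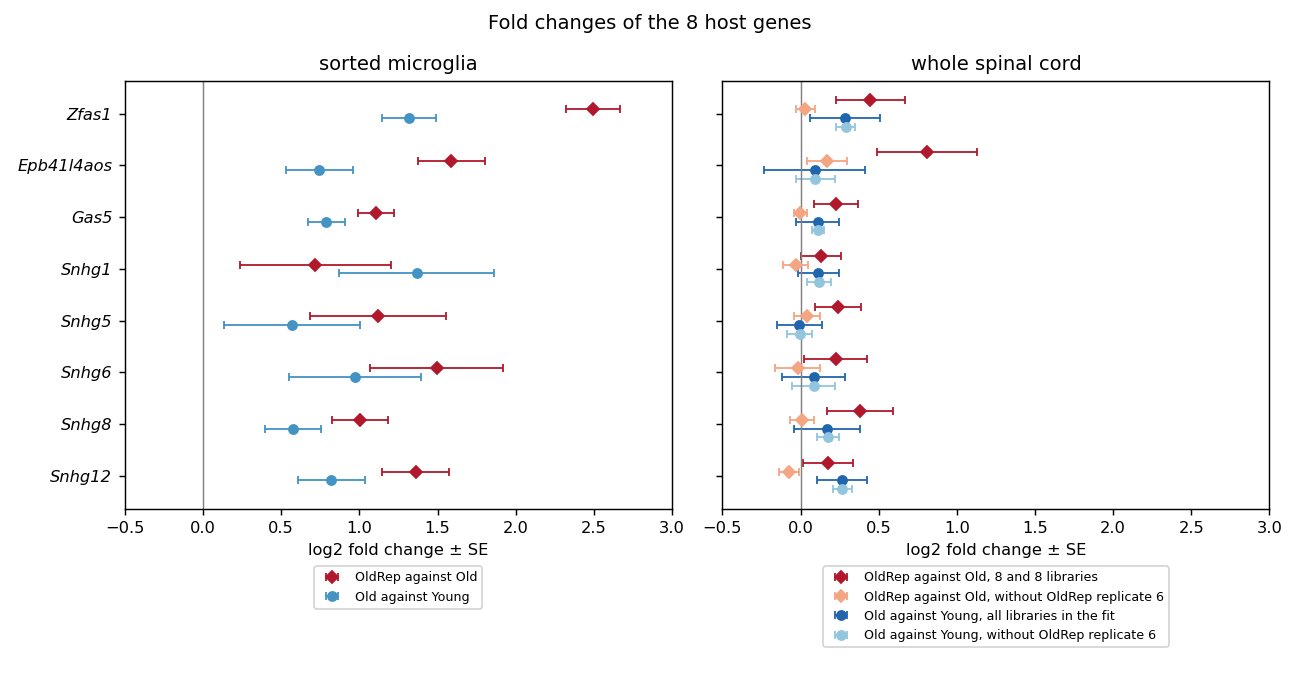
Log2 fold changes with their SE for repopulated against old and old against young mice, in sorted microglia and in whole spinal cord, the cord values with and without repopulated replicate 6. In microglia Zfas1 stands at 2.495 and 1.32, and in cord without replicate 6 at 0.03 and 0.29.

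The age effect on Zfas1 was larger in microglia than in cord. In a fit of all 48 libraries, the difference of the log2 fold changes was 0.87 (SE 0.29, edgeR quasi-likelihood test, adjusted p 0.0275), where 20.5% of 19110 genes were called, 5.44% were called higher and the median of all genes was -0.15. It ranged from 0.88 to 1.03 under the alternatives. The other 7 differences were also above 0 and did not pass in this fit, the nearest being Gas5 (0.51, SE 0.19, adjusted p 0.0518). Without repopulated cord replicate 6 the difference was 1.02 for Zfas1 and 0.67 for Gas5, which then passed too (adjusted p 0.000163). The microglia came from brain and the cord was taken whole, with different RNA extraction, so organ, cell type and extraction cannot be told apart.

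Between tissues, 4 of the 8 genes were called lower in young sorted microglia than in young cord under every scaling tried. That share lies near the background, as 84.3% of all genes were called, 35.4% higher and 48.9% lower. With TMM scaling over all 48 libraries, Snhg1 averaged 1.36 ± 0.87 CPM in young microglia and 6.48 ± 0.77 CPM in young cord (log2 -2.25, SE 0.35, edgeR quasi-likelihood test, adjusted p 1.84e-07). Scaled within each tissue, as in the paragraphs above, these levels were 0.941 ± 0.587 and 8.28 ± 0.989 CPM. Snhg5 (log2 -1.17, SE 0.35), Gas5 (log2 -0.85, SE 0.14) and Zfas1 (log2 -0.69, SE 0.21) were the others. Snhg6 (log2 -1.50 to -0.36) and Snhg12 (log2 -1.25 to -0.14) were also below 0 under every alternative that gave a value. They were called lower only under some alternatives and not in the main fit. Snhg8 (log2 1.04, SE 0.21) and Epb41l4aos (log2 0.93, SE 0.28) were called higher in microglia, but not under total-count scaling (0.22 and 0.12) and with the sign turned in log2(TPM + 1) (-0.07 and -0.14). The split of calls was 2 higher and 4 lower with TMM, 1 and 6 with median-ratio size factors, and 0 and 6 with total counts. The median of all genes was -0.48, -0.96 and -1.29 under these 3 scalings. Among the other noncoding hosts, Snhg11 had 0 counts in the 8 young microglia libraries and 2165 ± 167 CPM by total counts in young cord, at least 20474-fold lower in microglia when 3 counts per microglia library are allowed.

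Strand was not kept in these libraries, so reads where genes overlap cannot be assigned. Znfx1, an RNA helicase of antiviral defence, overlaps Zfas1 on the opposite strand by 82 exonic bases. Znfx1 averaged 274 ± 28.0 CPM in repopulated, 192 ± 20.3 CPM in old and 186 ± 14.9 CPM in young microglia. It did not pass in old against young microglia (log2 0.05, SE 0.07, adjusted p 0.733) and rose 1.43-fold in repopulated against old microglia (log2 0.51, SE 0.07, adjusted p 4.39e-06). In cord its log2 fold changes were -0.04 (SE 0.12) with age and 0.02 (SE 0.12) with repopulation. Gm27494 lies within Zfas1 on the same strand. Zbtb37, a zinc finger gene, overlaps Gas5 outside exons and had log2 fold changes of -0.38 (SE 0.34) in repopulated against old and 0.04 (SE 0.33) in old against young microglia. Mcmdc2, a gene of meiosis, overlaps Snhg6 by 127 exonic bases and was too low to test in microglia. Slc3a2, the heavy chain of several amino acid transporters, starts 106 bases from Snhg1 without overlap and fell in old against young microglia (log2 -0.18, SE 0.06, adjusted p 0.0287). Epb41l4a ends 341 bases from Epb41l4aos on the opposite strand and was too low to test in microglia.

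In old against young microglia, 21.7% of all genes were called and 11% were called higher. Of 27 protein-coding genes that also host snoRNAs, 22 rose and 0 fell there, with a median log2 fold change of 0.52. Among those averaging at least 5 CPM, Rpsa, a small-subunit ribosomal protein gene, rose most, to 825 ± 190 CPM in old against 486 ± 35.8 CPM in young microglia (log2 0.76, SE 0.11, adjusted p 4.95e-06). All 15 ribosomal protein genes among them rose, and 7 of the 12 others did. Between repopulated and old microglia, where 16.2% of all genes were called, 23 rose and 1 fell, the median being 0.83. This list and those below were chosen with earlier results of these data known. Values from repopulated microglia, the counts of calls included, are therefore a description, given without p-values. Nop56, which is both a host and a core protein of box C/D particles, fell (33.4 ± 4.91 against 45.2 ± 5.61 CPM, log2 -0.43, SE 0.10). Against young microglia, where 32.7% of all genes were called, 23 rose and 1 fell. Taf1d, a subunit of an RNA polymerase I factor, rose most (log2 1.90, SE 0.24) and Nop56 fell again (log2 -0.44, SE 0.10). In cord 0, 0 and 3 rose in old against young, repopulated against old and repopulated against young mice. Rpl12 was the highest of the 3 (log2 0.62, SE 0.19, adjusted p 0.0395). Over all genes 6.15%, 0.148% and 10.1% were called in these cord comparisons, and 7.28% were called higher in the last. Without replicate 6 the counts were 7, 0 and 14, where 11.5%, 0.168% and 13.9% of all genes were called.

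The 17 translation genes with a 5′ TOP motif that are not ribosomal protein genes share 4 genes with the protein-coding hosts (Eef1b2, Eef2, Rack1 and Tpt1), so the counts of these lists are not separate observations. In old against young microglia 16 rose, led by Nap1l1, a histone chaperone (85.3 ± 8.81 against 48.6 ± 3.60 CPM, log2 0.81, SE 0.10, adjusted p 3.88e-07). All 17 rose in repopulated against old microglia, led by Npm1, the nucleolar protein nucleophosmin (439.4 ± 115 against 191 ± 30.1 CPM, log2 1.20, SE 0.12). All 17 rose in repopulated against young microglia as well, Npm1 by 1.75 on the log2 scale. In these 3 microglia comparisons, in the same order, 21.7%, 16.2% and 32.7% of all genes were called. This list was chosen with earlier results of these data known, so its values from repopulated microglia are a description. In old against young cord 1 rose, Pabpc1, the poly(A)-binding protein (177 ± 8.32 against 147 ± 8.38 CPM, log2 0.26, SE 0.05, adjusted p 0.000363). Repopulated against young cord had 3 rises, Rack1 the most (log2 0.43, SE 0.13, adjusted p 0.0406), and in repopulated against old cord 0 did. Without replicate 6 the cord counts were 4 with age, 5 for repopulated against young and 0 for repopulated against old. Over all genes, 11.5%, 13.9% and 0.168% were called in that order, and 6.15%, 10.1% and 0.148% with all libraries.

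Among the proteins that bind and assemble snoRNAs, 3 (Dkc1, Nop56 and Nop58) are also protein-coding hosts. Of 16 such genes, 0 rose and 1 fell in old against young microglia, Ruvbl2, an assembly ATPase (40.1 ± 6.16 against 49.4 ± 3.70 CPM, log2 -0.30, SE 0.10, adjusted p 0.0234). Median-ratio and total-count scaling gave 1 rise and 0 falls instead. Of the 16, 4 had an unadjusted p under 0.05, for which the share of all genes is not given. At the adjusted threshold 21.7% of all genes were called. Between repopulated and old microglia 1 rose, Fbl, the methyltransferase fibrillarin (log2 0.28, SE 0.09), and 2 fell. Over all genes 16.2% were called there. Total-count scaling gave 0 rises and 5 falls, and log2(TPM + 1) gave 0 and 6. Against young microglia, where 32.7% of all genes were called, 3 rose, led by Nhp2 of the H/ACA particle (log2 0.65, SE 0.18), and 4 fell (0 and 5 on log2(TPM + 1)), led by Ruvbl2 (log2 -0.47, SE 0.10). Their median log2 fold changes were 0.06 with age and -0.08 in repopulated against old microglia. These genes and the decay factors were also chosen with earlier results of these data known, so values from repopulated microglia are a description. Of 14 nonsense-mediated decay factors, 4 fell and 0 rose in old against young microglia, where 21.7% of all genes were called. Upf1, the helicase at the core of that pathway, fell most (85.4 ± 7.04 against 115 ± 6.98 CPM, log2 -0.43, SE 0.07, adjusted p 4.88e-05). Median-ratio and total-count scaling gave 1 rise and 3 falls with age instead. With repopulation 1 rose, Upf3a (log2 0.62, SE 0.17), and 0 fell. Total-count scaling gave 0 rises and 1 fall, and log2(TPM + 1) gave 0 and 2. In repopulated against young microglia 2 rose and 3 fell (1 and 8 on log2(TPM + 1)), Smg5 falling most (log2 -0.46, SE 0.11). In cord 0 genes of either list passed in any of the 3 comparisons, with or without replicate 6. By unadjusted p under 0.05, with all libraries, 0, 2 and 2 of the snoRNP genes and 0, 0 and 2 of the decay factors did in old against young, repopulated against old and repopulated against young cord. The share of all genes at that unadjusted threshold is not given, so nothing is read from these counts.

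Of the 13 other noncoding hosts listed, 7 passed the filter on low counts in microglia and 11 in cord. The list was chosen with earlier results of these data known, so values from repopulated microglia are a description. Over all genes, 21.7%, 16.2% and 32.7% were called in old against young, repopulated against old and repopulated against young microglia. Of these hosts, 1 rose with age there, 0 passed in repopulated against old and 3 rose in repopulated against young microglia. The first was Snhg3, at 1.61 ± 1.24 CPM in old against 0.653 ± 0.298 CPM in young microglia (log2 1.29, SE 0.47, adjusted p 0.0493), under the level of 5 CPM set for naming and chosen after its values were seen. In cord 0, 0 and 1 rose in old against young, repopulated against old and repopulated against young mice. The counts were 1, 0 and 2 without replicate 6. Over all genes 6.15%, 0.148% and 10.1% were called in cord, and 11.5%, 0.168% and 13.9% without replicate 6.

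**Figure D5:**
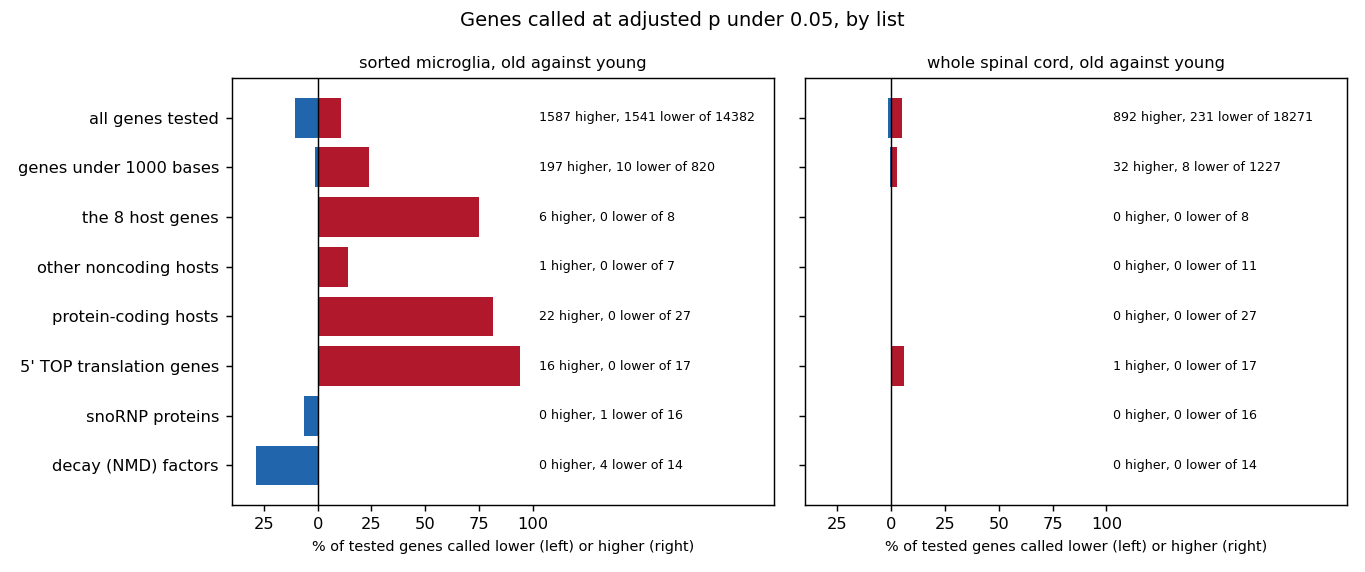
Share of tested genes called higher (right) or lower (left) at an adjusted p under 0.05 in old against young mice, for all genes, short genes, the 8 host genes and 5 related lists, in sorted microglia and in whole spinal cord with all libraries in the fit. In microglia 22 of 27 protein-coding hosts and 16 of 17 translation genes rose, while 0 of 16 snoRNP proteins did.

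The genes with the profile most like Zfas1 are listed for each tissue as a description. Likeness was the root mean square difference in log2 CPM after centring each gene, over 24 libraries of a tissue, limited to genes that averaged 5 CPM or more. In microglia, of 9616 genes, 2410006H16Rik came first at 0.51, followed by Ifi27l2a (0.62), Irf7 (0.64), Lgals3bp (0.64) and Oas1a (0.67), where the SD of Zfas1 itself was 1.63. Of the host genes at that level, Epb41l4aos ranked 9, Snhg12 ranked 13, Gas5 ranked 39 and Snhg8 ranked 120. The 24 microglia libraries include the repopulated ones on which the host genes were chosen. That choice shapes these ranks, and nothing is read from them. In cord, of 12716 genes, the nearest were Rplp1, Rpl30, Rps24, Rps19 and Fth1 (0.10 to 0.11, SD of Zfas1 0.44), and Snhg8 ranked 65, Snhg12 ranked 134, Gas5 ranked 175, Snhg1 ranked 613 and Snhg5 ranked 976. Without repopulated replicate 6, where the SD of Zfas1 was 0.18, they were Rpl30, Daglb, Rps23, S100a16 and Rps18 (0.10 each). Of 12689 genes, Gas5 then ranked 91, Snhg12 ranked 202, Snhg1 ranked 381, Snhg8 ranked 545 and Snhg5 ranked 6550.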

How the data were processed

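Poly(A) RNA was sequenced after a TruSeq kit that keeps no strand, per the labels' protocols. Reads were handled with STAR 2.5.2b and the GRCm38.p5 build, per the submitters' processing notes; how reads were counted, and with which annotation, is not stated there. The deposited tables hold raw counts per gene and, from the authors, TPM values and gene lengths; the FPKM values were not used. TPM recomputed from counts and lengths matched the deposited TPM within 1% for 100% of values. Rows without a symbol were kept under their identifiers.

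The members and gene lists were chosen with earlier results of these data known. Genes were kept with edgeR's filterByExpr (minimum count 10, total 15) and fitted per tissue over 24 libraries with edgeR 4.0.16 (R 4.3.3, TMM scaling, quasi-likelihood test, Benjamini-Hochberg adjustment, threshold 0.05), and over 48 libraries for tissue and for age by tissue. Named genes were the 8 members, overlapping or neighbouring genes, the gene with the largest called rise and fall of each list at 5 CPM or more, and the 5 genes nearest Zfas1. One gene under this rule is not reported here. Alternatives used DESeq2 1.42.0, limma 3.58.1, other scalings, filters and pseudocounts of 1 and 0.1 on log2 TPM, and left out each library; the lists and the interaction without repopulated cord replicate 6 were added after seeing the data. Within a tissue, same-numbered libraries did not deviate together (at most 4 of 8 pairs correlated over 0.1), so numbers were not taken to pair samples. Pairing between microglia and cord was not checked, and the labels leave unstated whether they came from the same mice. The main fits over 48 libraries took them as unpaired. None of 168 pairs of libraries of one group agreed within sampling noise (chi-square per gene 3.40 or more). On simulated data the test recovered 40.2% of log2 changes of 0.5 and 74.2% of 1 among 13789 genes in old against young microglia, and 67.8% and 92.7% among 18133 genes in cord. Counting limits cover counting error only.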

Additional observations from a re-analysis of the deposited data

Results flagged for a closer look

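Of 48 checks of 8 libraries each, 11 found a highest or lowest library whose gap to its neighbour, as a share of the group's range, passed Dixon's critical value; chance flags about 1 in 20 groups. In 8 of the 11 the library was repopulated cord replicate 6. It stood highest in Zfas1 (68.1 CPM), Epb41l4aos (19.3 CPM), Gas5 (244 CPM), Snhg1 (17.5 CPM), Snhg5 (17.5 CPM), Snhg6 (4.74 CPM), Snhg8 (28.6 CPM) and Snhg12 (26.9 CPM). These 8 checks rest on 1 library and are not independent. Its share of ribosomal protein reads was 3.09%, and the part of that in the host gene values was not tested.

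In microglia, Snhg12 was highest in repopulated replicate 1 (28.8 CPM, the next library at 22.3 CPM). Snhg5 was highest in old replicate 4 (7.80 CPM, the next at 3.50 CPM) and in young replicate 3 (4.58 CPM, the next at 2.54 CPM).

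The age effect on Zfas1 differed between sorted microglia and cord by 0.87 on the log2 scale in the edgeR test of the difference itself (adjusted p 0.0275).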

How the results depend on the processing

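Of 1795 values of single host genes under the alternatives, 1722 kept their direction and their side of the threshold or stayed within 1 SD, counting a changed sign of an uncalled value among them. In old against young microglia the number of host genes called was 4 to 6 when 1 library was left out, and 5 with the replicate number as a block. The median log2 fold change in repopulated against old microglia was 1.19 to 1.48 with 1 library left out and 1.33 with the block. Against young microglia it was 2.03 to 2.30, 2.21 with the block, and 1.78 on log2(TPM + 1). In old against young cord the count was 2 by limma-voom, 1 on log2(TPM + 1), 1 on log2(TPM + 0.1), 2 in a fit of the groups compared alone, 0 with the block, and 0 to 2 with 1 library left out. In repopulated against old cord it was 0 to 0 with 1 library left out and 0 with the block. In repopulated against young cord it was 2 on both TPM scales, 0 with the block, 0 in a fit of the groups compared alone, and 0 to 2 with 1 library left out. For age by tissue it was 2 under median-ratio and total-count scaling, with no filter, a stricter filter, on both TPM scales, in the groups compared alone and without repopulated cord replicate 6, 3 by DESeq2 and limma-voom, and 1 with the block. Between tissues it was 6 with the block, and the sign turned for Epb41l4aos (-0.14 on log2(TPM + 1), -0.15 on log2(TPM + 0.1)) and Snhg8 (-0.073 and -0.077 on the same scales). The cause of these changes was not tested. Snhg6 gave no value under the stricter filter in cord and in the fit of both tissues. Over all genes in repopulated against old microglia, 55.7% of calls were higher with TMM, 17.6% under total-count scaling and 10.4% on log2(TPM + 1). In old against young microglia they were 50.7%, 60.5% and 40.7%. Low counts limit Snhg1, Snhg5 and Snhg6 in microglia.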
